A study of Mus musculus with 4 samples.

Results

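The 10 genes described here are markers of adipocytes, the fat-storing cells of the fat pad in which the mammary epithelium grows, and they were read in terminal end buds and ducts dissected out of that pad. They were taken by a fixed list of Ensembl IDs paired with symbols: Adipoq, Fabp4, Plin1, Lpl, Pparg, Cfd, Lep, Retn, Cd36 and Cidec. All 10 were found among the 28399 gene rows of the deposited table. A terminal end bud (TEB) is the bulbous growing tip of a pubertal mammary duct, and the duct (DUCT in the labels) is the tube behind it. Both were freed by collagenase digestion and microdissection from number 4 (inguinal) glands of pubertal female C57/BL6 mice, for which the labels name no treatment, transgene or mutation. The labels give an age of 5 to 6 weeks in one place and of 6 to 7 weeks at killing, with a body weight of 16 to 18 g, in another. There were 2 TEB arrays and 2 DUCT arrays, each standing for about 300 to 400 structures. The submitters call them technical replicates of pooled material, so the spread and the p-values given here describe arrays and not mice.

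Adipocytes store triglyceride in a single large droplet, take up fatty acids that are released from circulating lipoproteins, and secrete hormones and other proteins known as adipokines. The nuclear receptor PPARG and factors of the C/EBP family switch on most of the genes of this program. In the mammary gland the fat pad surrounds every epithelial structure, and at puberty the TEB advances into it. Several of the markers are also made elsewhere: Cd36, Fabp4, Lpl and Pparg are known in capillary endothelium or macrophages as well as in fat.

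Column medians ran from 6.35 to 6.41 log2 units for TEB and from 6.20 to 6.34 for DUCT, and the middle row of the table was 0.11 log2 units higher in TEB. That offset was 0.0041 after quantile normalization, so a marker that is lower in TEB on the deposited values lies further below the bulk of genes than its own difference says. Markers of epithelium, fibroblasts, endothelium, macrophages and other cells were not analysed here, because their IDs are not paired with symbols in the sources used. The part of such cells in the results below was not tested, and the labelled tissue was not checked against epithelial genes. In RNA of whole structures, fewer cells of a type and less RNA per cell cannot be told apart.

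The comparison of TEB with DUCT asks how much signal of fat cell genes each dissected structure carried. Mean values were lower in TEB for 9 of the 10 markers, against 40.2% of all rows, and for 8 of them both TEB arrays lay below both DUCT arrays. The marker Cidec had the higher mean in TEB, by 0.11 log2 units, with overlapping arrays, and this direction turned after quantile normalization and after median centring. Differences were modest: leptin (Lep) was 2.11-fold and lipoprotein lipase (Lpl) 1.79-fold lower in TEB, Fabp4 and Cd36 were 1.52-fold and 1.51-fold lower, and the other markers stayed under 1.5-fold. The median difference over the 10 markers was -0.43 log2 units, beside 0.11 over all rows.

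Without overlap, 8 of 10 markers were lower in TEB and 0 were higher. Over all rows the shares were 19.6% lower and 33.8% higher, so separation of this kind was common on these arrays. Among rows brighter than the median of all rows, a set that holds every marker but Lep, 18.6% were lower without overlap. At a floor of 1.5-fold the markers lower without overlap were the 4 named above, against 8.23% of all rows, and at a floor of 2-fold it was Lep alone, against 2.63%. The count at 2-fold was 2 after quantile normalization, where Lpl joined, beside 971 of all 28399 rows. Without TEB replicate 1 and without DUCT replicate 2, Lep stood at -0.85 and -0.98 log2 units and so fell short of 2-fold. None of the 10 markers was called by limma's moderated test with Benjamini-Hochberg adjustment over all rows (adjusted p under 0.05 and at least 1.5-fold), and neither was any other row (0%). Before adjustment, limma gave p under 0.05 for 2 markers lower in TEB, Lpl and Lep, and for 0 markers higher, against 7.27% and 12.5% of all rows in those directions. With 2 arrays against 2, an exact two-sided permutation test of a single gene cannot go below p = 0.333.

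**Figure D1:**
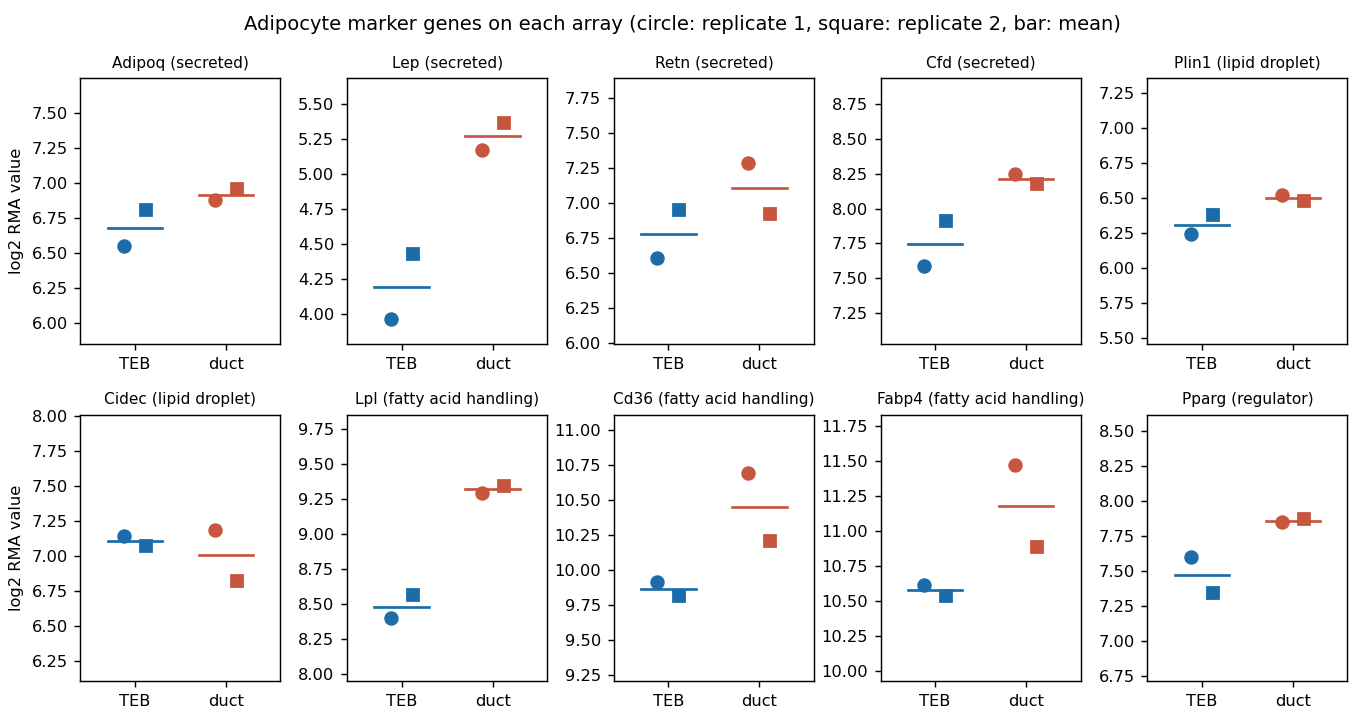
Deposited log2 RMA value (y axis, with the same span in each panel) of each adipocyte marker on the 2 TEB arrays (blue) and the 2 DUCT arrays (red), with circles for replicate 1, squares for replicate 2 and bars for group means. TEB points lie below DUCT points in 8 panels, and the arrays overlap for Retn and Cidec.

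Among the secreted proteins, leptin showed the widest difference. Leptin is the hormone by which fat signals energy stores to the brain. Lep (ENSMUSG00000059201) measured 3.96 and 4.42 on the TEB arrays and 5.17 and 5.37 on the DUCT arrays, in log2 units. The DUCT values were both higher, and the gap of 0.75 between the groups was wider than the gap between replicates of either structure (0.46 in TEB, 0.19 in DUCT). Its mean was 4.19 ± 0.32 (SD, n = 2) in TEB and 5.27 ± 0.14 (SD, n = 2) in DUCT. The log2 difference was -1.08 with SE 0.24 and a 95% interval from -1.70 to -0.45, and limma's adjusted p was 0.149. When limma's prior variance followed brightness, the SE widened to 0.34, and Lep was again not called (limma adjusted p = 0.125). Both TEB values of Lep lay under the lower quartile of their arrays (4.53 on each) and both DUCT values above it (4.48 and 4.49). No detection calls were used here, so it is not known whether values this dim lie above background, which limits what the size of this fold means.

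Adiponectin (Adipoq, ENSMUSG00000022878), an insulin-sensitising hormone made almost wholly by adipocytes, differed little. It measured 6.55 and 6.81 on the TEB arrays and 6.88 and 6.96 on the DUCT arrays. The groups did not overlap, but the gap between them was 0.069 and the gap between the TEB replicates was 0.26. The log2 difference was -0.24 with a 95% interval from -0.74 to 0.27 (limma adjusted p = 0.522). A total of 23.6% of all rows had a difference as low or lower.

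Complement factor D (Cfd, ENSMUSG00000061780), also called adipsin, is the protease of the alternative complement pathway that fat secretes. It measured 7.59 and 7.91 in TEB and 8.25 and 8.17 in DUCT, again with DUCT higher on both arrays. The log2 difference was -0.46 with SE 0.20 (limma adjusted p = 0.292), a 1.38-fold difference. Resistin (Retn, ENSMUSG00000012705), an adipokine of mouse fat, measured 6.61 and 6.95 in TEB and 7.29 and 6.92 in DUCT. Here the second TEB array was above the second DUCT array by 0.026, so the groups overlapped, and the log2 difference of -0.33 had a 95% interval from -0.95 to 0.30. After quantile normalization and after median centring the groups of Retn no longer overlapped, with differences of -0.45 and -0.44.

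With all 4 arrays, the 2 lipid droplet proteins had the smallest differences of the 10 markers, an order that did not hold without TEB replicate 1, DUCT replicate 1 or DUCT replicate 2. Perilipin 1 (Plin1, ENSMUSG00000030546) coats the adipocyte droplet and controls access of lipases to it. It measured 6.24 and 6.38 in TEB and 6.52 and 6.48 in DUCT, without overlap, and its log2 difference was -0.19 with a 95% interval from -0.65 to 0.27 (limma adjusted p = 0.579). Cidec (ENSMUSG00000030278), which acts where droplets touch and lets them merge, measured 7.15 and 7.07 in TEB and 7.19 and 6.82 in DUCT. The DUCT arrays of Cidec lay on either side of both TEB arrays. Its log2 difference was 0.11 with a 95% interval from -0.45 to 0.66 (limma adjusted p = 0.806), -0.035 after quantile normalization and -0.0089 after median centring. These intervals leave room for differences of either sign and do not show that the droplet genes were equal in the structures.

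The 3 genes of fatty acid uptake were all lower in TEB without overlap, by 0.59 to 0.84 log2 units. Lipoprotein lipase (Lpl, ENSMUSG00000015568) frees fatty acids from lipoproteins at the capillary wall. It measured 8.40 and 8.56 on the TEB arrays and 9.30 and 9.34 on the DUCT arrays. Replicates lay close together, 0.17 apart in TEB and 0.046 in DUCT, and the groups were 0.73 apart. The means were 8.48 ± 0.12 (SD, n = 2) and 9.32 ± 0.03 (SD, n = 2). Its log2 difference was -0.84 with SE 0.18 and a 95% interval from -1.31 to -0.37, with an adjusted p of 0.142 from limma. Lpl passed the call when limma's prior variance followed brightness (adjusted p = 0.0234), a fit in which 1.48% of all rows were called lower and 3.75% higher in TEB, and it was the 1 marker that did. It also passed among rows above the median brightness (limma adjusted p = 0.035), where 3.18% were called lower.

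The fatty acid transporter Cd36 (ENSMUSG00000002944) and the cytosolic fatty acid carrier Fabp4 (ENSMUSG00000062515) had nearly the same course over the arrays. Cd36 measured 9.91 and 9.82 in TEB and 10.70 and 10.21 in DUCT. Fabp4 measured 10.61 and 10.54 in TEB and 11.47 and 10.88 in DUCT. In both genes the TEB replicates lay close together, 0.098 apart for Cd36 and 0.079 for Fabp4, while the first DUCT array stood above the second by 0.48 for Cd36 and 0.59 for Fabp4. The log2 difference was -0.59 for Cd36 (95% interval -1.21 to 0.03, limma adjusted p = 0.268) and -0.60 for Fabp4 (95% interval -1.29 to 0.08, limma adjusted p = 0.29). Without DUCT replicate 1 these differences were -0.35 and -0.31, and without DUCT replicate 2 they were -0.83 and -0.90. Their size thus rested on which DUCT array was used, and their direction did not.

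Pparg (ENSMUSG00000000440), the nuclear receptor that drives adipocyte differentiation and is the target of glitazone drugs, measured 7.60 and 7.34 in TEB and 7.85 and 7.87 in DUCT. The DUCT arrays were only 0.024 apart and both lay above the TEB arrays, which were 0.26 apart. Its log2 difference was -0.39 with SE 0.19 and a 95% interval from -0.89 to 0.11 (limma adjusted p = 0.331), a 1.31-fold difference.

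**Figure D2:**
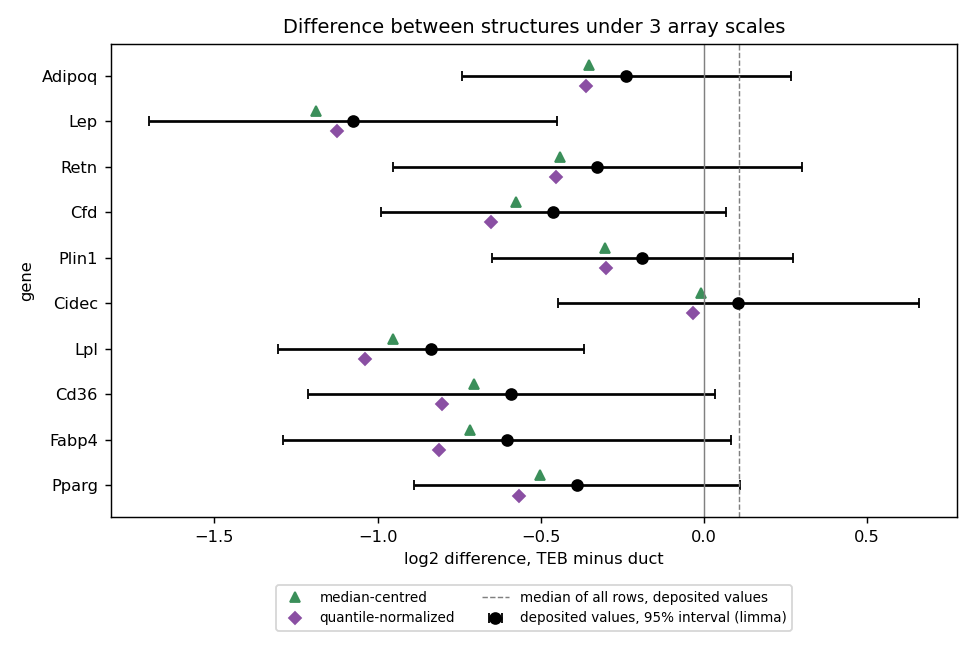
Log2 difference of TEB minus DUCT (x axis) for each marker (y axis) on the deposited values with 95% limma intervals (black), after centring each array on its median (green triangles) and after quantile normalization (purple diamonds). The intervals of Lep and Lpl lie wholly below 0, those of the other 8 markers include 0, and both rescalings shift the markers to the left, median centring by the same amount for every row.

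A further rescaling of the RMA values lowered TEB against DUCT across the table. Median centring, by construction, subtracts the same 0.11 log2 units from the difference of every row. Whether that offset came from the processing or from the structures was not tested. After quantile normalization 9 of 10 markers were lower in TEB without overlap, against 25.9% of all rows, and the median difference over the markers was -0.61. After median centring 9 of 10 were lower without overlap, against 26% of all rows, with a median of -0.54. The fatty acid genes then stood at -1.04 for Lpl, -0.81 for Fabp4 and -0.80 for Cd36 after quantile normalization, and Pparg stood at -0.57. No marker was called by limma on either scale with the constant prior. Before adjustment, 6 markers lower in TEB had a limma p under 0.05 on each scale, and 0 higher. The rows lower in TEB at that threshold numbered 2870 of 28399 after quantile normalization and 2901 after median centring. Those higher in TEB numbered 2525 and 2653, in the same order. With a prior that follows brightness, in fits added after seeing the data, Lpl and Cd36 were called on both scales. Their adjusted p from limma was 0.0155 and 0.0393 after quantile normalization and 0.0196 and 0.044 after median centring. In those fits 2.67% and 2.44% of all rows were called lower in TEB, and Cd36 was called in no other fit.

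**Figure D3:**
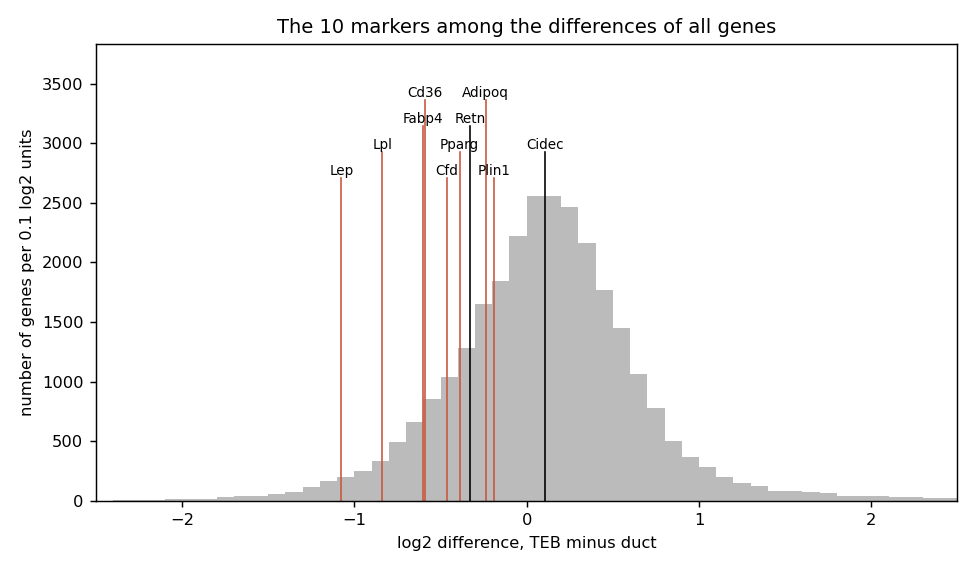
Histogram of the log2 difference of TEB minus DUCT on the deposited values for all 28399 rows (grey, number of genes per 0.1 log2 units, with rows beyond the x axis limits not drawn), with lines at the 10 markers, red where the arrays of the structures do not overlap and black where they do. Lep and Lpl lie in the left tail, and Cidec lies at the centre of the distribution.

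Set among all rows by size, Lep and Lpl lay furthest out, with 2.24% and 4.33% of rows as low or lower. Fabp4 and Cd36 followed with 8.87% and 9.23%. For the rest the share ran from 13.3% for Cfd to 49.7% for Cidec. Most markers were therefore in a range that a sizeable part of all rows reached. The gap between the groups was wider than both replicate gaps for 2 markers, Lep and Lpl, while 8.3% of all rows met that condition in the same direction.

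Single arrays showed how far the direction held. Against the first DUCT array, all 10 markers were lower on the first TEB array, with a median difference of -0.67 log2 units, and all 10 were lower on the second, with a median of -0.42. Against the second DUCT array, 9 and 8 markers were lower, with medians of -0.31 and -0.31. The exceptions were Cidec on both TEB arrays and Retn on the second. Smaller differences depended on single arrays: without TEB replicate 1, Adipoq stood at -0.11, Plin1 at -0.12, Cfd at -0.30 and Retn at -0.16, without TEB replicate 2 Pparg stood at -0.26, and without DUCT replicate 1 Retn stood at -0.15. In the other direction, without TEB replicate 2 Adipoq stood at -0.37 and Retn at -0.50, and without DUCT replicate 2 Retn stood at -0.51. For Lep and Lpl the values without single arrays ran from -1.31 to -0.85 and from -0.92 to -0.75. Over all rows the share lower in the 4 pairings of a TEB with a DUCT array ran from 39.9% to 45.2%.

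Differences between replicates of one structure were not shared by all markers. On the first DUCT array Fabp4, Cd36, Cidec and Retn stood 0.36 to 0.59 log2 units above the second, while the other 6 markers differed by 0.19 or less in either direction. Between the TEB arrays the widest gaps were 0.46 for Lep, 0.34 for Retn and 0.32 for Cfd, each lower on the first array. The first TEB array held the lowest value of 6 markers, the second that of 3, and the second DUCT array that of Cidec. The highest value lay on a DUCT array for every marker, on the first for 6 and on the second for 4. No such counts over all rows are given here to set beside these.

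**Figure D4:**
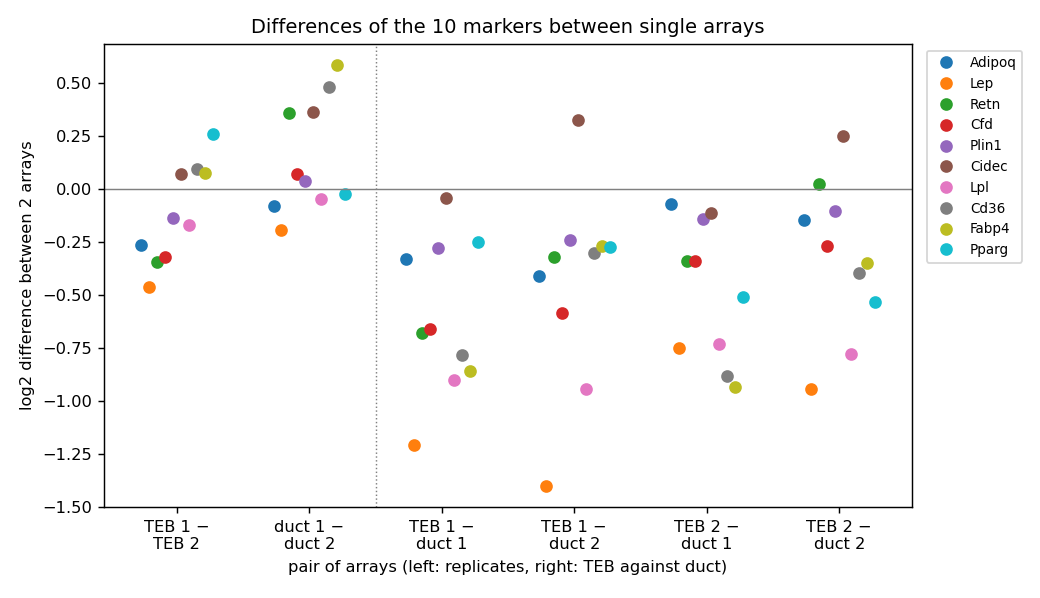
Log2 difference between 2 arrays (y axis) for each marker (coloured points), between replicates of one structure (left of the dotted line) and between each TEB and each DUCT array (right). Replicate differences fall on both sides of 0, from -0.46 to 0.59, and the TEB minus DUCT differences lie below 0 except for Cidec against the second DUCT array and Retn in one pairing.

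Upstream sequence was examined because most of these markers were lower in the same structure, and C/EBP and PPARG sites are the textbook switches of the adipocyte program. Windows from 250 bases before to 50 after the start site came from RefSeq (GRCm38.p6) and were matched by symbol for 8 of the 10 markers, with 11 windows in all. They were searched on both strands for TTGCNNAA, a C/EBP-type octamer, for AGGTCA, the core hexamer bound by PPARG and other nuclear receptors, and for TATAAA. The octamer was found for 4 of the 8 markers, Lep, Plin1, Pparg and Cidec, in 4 of 11 windows, beside 10.8% of 32851 windows of all genes. AGGTCA was found for 2 markers, Pparg and Cd36, in 3 of 11 windows, beside 16.3% of all windows, and TATAAA was found in 1 window of Pparg, beside 13.6%. No match overlapped a match to another motif. The 4 windows with the octamer follow without the bases after the start site, 5′ to 3′ on the strand of the gene, with octamer matches in capitals. They are chr6:29059971-29060220 (plus strand) for Lep, chr7:79732777-79733026 (minus strand) for Plin1, the third Pparg window at chr6:115421816-115422065 (plus strand) and the second Cidec window at chr6:113434765-113435014 (minus strand).
Lep: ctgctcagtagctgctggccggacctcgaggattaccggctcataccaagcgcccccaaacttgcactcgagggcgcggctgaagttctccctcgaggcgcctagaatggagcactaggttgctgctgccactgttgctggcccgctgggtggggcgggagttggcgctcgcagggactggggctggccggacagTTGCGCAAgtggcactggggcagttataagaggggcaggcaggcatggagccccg
Plin1: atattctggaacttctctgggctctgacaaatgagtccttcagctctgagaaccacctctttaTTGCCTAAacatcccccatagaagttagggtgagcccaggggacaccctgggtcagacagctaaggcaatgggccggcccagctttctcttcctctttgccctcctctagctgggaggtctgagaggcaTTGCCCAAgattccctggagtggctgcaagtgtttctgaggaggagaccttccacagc
Pparg: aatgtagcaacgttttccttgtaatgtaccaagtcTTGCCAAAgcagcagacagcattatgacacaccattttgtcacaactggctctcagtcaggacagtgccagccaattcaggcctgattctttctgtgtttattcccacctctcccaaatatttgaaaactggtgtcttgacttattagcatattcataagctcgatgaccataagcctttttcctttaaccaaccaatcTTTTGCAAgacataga
Cidec: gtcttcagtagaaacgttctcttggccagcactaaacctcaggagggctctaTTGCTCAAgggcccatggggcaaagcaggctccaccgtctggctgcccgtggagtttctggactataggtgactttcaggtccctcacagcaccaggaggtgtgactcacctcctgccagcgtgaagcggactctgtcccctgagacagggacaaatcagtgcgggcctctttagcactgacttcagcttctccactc
The Lep octamer began 55 bases before the start site and is its own reverse complement. Those of Plin1 began 187 and 58 bases before it, those of Pparg 215 and 16, and that of Cidec 198. The octamer was thus present in the marker with the widest difference, Lep, and in the one with overlapping arrays and no steady sign, Cidec, and absent from these windows of Adipoq, Cfd, Retn and Cd36, of which Adipoq, Cfd and Cd36 were lower in TEB without overlap. A match is a match of letters only, and these arrays carry no measure of factor binding. Any link between these motifs and the differences was not tested.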

How the data were processed

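RNA of 2 TEB and 2 DUCT samples was hybridised to 4 single-colour arrays. The labels' protocols name TRI reagent with column clean-up, DNase, removal of ribosomal RNA and biotin-labelled cRNA from 1.5 microg of total RNA. The deposited table holds log2 values that the authors made with RMA (background correction, normalization and probe summary), with genome build mm9, per the submitters' processing notes. RMA's version, the annotation, filters and the step to 1 value per Ensembl ID were not given in the sources used here. Each marker's deposited log2 value equals a mean of several numbers of 5 decimals (tolerance 0.005 units of the last decimal), with a smallest possible divisor between 2 (Lep) and 18 (Cd36). Such means can hide probes that disagree.

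Samples were grouped by title. The fit used lmFit and eBayes of limma 3.58.1 (R 4.3.3) on all 28399 rows, with no block or filter, 2 residual and 2.51 prior degrees of freedom, and Benjamini-Hochberg adjustment over all rows. A call needed an adjusted p under 0.05 and 1.5-fold. Alternatives were quantile normalization, median centring, a brightness filter, other variance priors and fold floors, a replicate block and omission of single arrays. The code was tested on simulated data. Same-numbered arrays deviated together with r = 0.086 across rows and no label ties the numbers to shared material, so they were not paired.

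Markers, lists and tests were chosen with earlier results of these data known. By the rule for named genes all 10 markers are named. Its other parts (a wider adipocyte list, family relatives, other cell types, genes of most similar pattern) could not be applied, because the reference table held the 10 marker symbols but 0 Ensembl IDs. The pairing of symbols with IDs was therefore not checked against an annotation. The number of arrays limits the precision.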

Additional observations from a re-analysis of the deposited data

How the results depend on the processing

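The count of 0 called rows and the count of 0 called markers held under quantile normalization, median centring, robust moderation and the replicate number as a block, and without single arrays, where the lone array left is assumed to vary like the other structure. The count of rows was also 0 with no fold floor and at 2-fold, which could give nothing else, as the smallest adjusted p from limma was 0.0657. It moved to 1485 rows and 1 marker with a prior that follows brightness, to 1426 rows and 1 marker above the median brightness, and, in 2 fits added after seeing the data, to 1466 rows and 2 markers with that prior on quantile-normalized values and 1586 rows and 2 markers with it on median-centred values. The cause was not tested. With the replicate number as a block 0 rows and 0 markers were called, but that fit too has fewer residual degrees of freedom and is less able to call. The median over the markers, -0.43, moved to -0.61 after quantile normalization and ran from -0.52 to -0.33 without single arrays, and markers lower without overlap numbered 8 to 10 without single arrays, where the share of all rows also rose, to between 28.9% and 32.2%, as a lone array separates more easily. Markers lower without overlap by at least 1.5-fold numbered 4, but 5 after quantile normalization (10.8% of all rows), 3 without TEB replicate 2 (10.6%) and 2 without DUCT replicate 1 (11.3%). Of 119 values of single markers under the alternatives, 5 changed sign, all of Cidec. These were -0.035 after quantile normalization and -0.0089 after median centring, each also with the brightness prior, and -0.078 without DUCT replicate 2. Without each of the other single arrays Cidec kept its sign, at 0.069 to 0.29. The brightness filter, the brightness prior, robust moderation and the replicate block leave every deposited difference as it is, so no sign could change there. On the rescaled values that prior likewise repeats the differences of each scale. Calls were gained in 6 of the 119, by Lpl and Cd36. Lep was removed by the brightness filter and was not fitted there. Without detection calls, signal over background is unknown, which limits Lep most.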
